A study of Mus musculus with 6 samples.

Results

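The interferon response and antigen presentation genes were followed here in isolated mouse pancreatic islets, as 56 of the 48321 gene names of the deposited table: 47 named genes and the interferon regulatory factor (IRF) genes. Diets were compared in 2 groups: 3 high-fat samples, from C57BL6 mice labelled WT (wild type) and started at the age of 3 months on a feed with 60 percent of its calories as fat and kept on it for 4 months, and 3 normal chow samples from C57BL6 mice, also labelled WT, whose age and feeding time the labels used here do not give. Islets were isolated and their RNA was extracted with Trizol for sequencing. The values are CPM, reads per gene scaled to the depth of the library. Chow replicate 2 was not counted, because for each of the 48321 names its value was the average of the other chow columns, so n = 3 for high-fat and n = 2 for chow throughout. Separate animals are not named for the samples, so each p-value here rests on sample-to-sample spread that may be technical.

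Type I interferons bind a receptor made of IFNAR1 and IFNAR2, which acts through the kinases JAK1 and TYK2 on STAT proteins. These join IRF9 into a complex that binds the interferon-stimulated response element (ISRE) of antiviral genes. Interferon gamma binds IFNGR1 and IFNGR2 and acts on a different element, the gamma-activated site (GAS). Both raise class I antigen presentation, in which the immunoproteasome cuts peptides, the TAP transporter carries them into the endoplasmic reticulum and tapasin loads them onto class I molecules. In islets this programme is best known from type 1 diabetes, where beta cells carry high class I levels.

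The depth implied by the spacing of low values was 23.5 to 35.1 M reads in high-fat and 18.8 and 24.7 M reads in chow, and 3 reads, a floor for counting error only, were worth 0.0856 to 0.16 CPM. The structured RNA Rn7sk was at 3626, 3192 and 3935 CPM in high-fat, against 6.27 and 13.3 CPM in chow. The labels name no library type, and the sample titles begin with BS in chow and RA in high-fat. A possible difference in how the libraries were made and the diet cannot be told apart in any result given here. Transcripts of the enzyme-secreting acinar cells made up 11.1%, 1.52% and 4.45% of the summed CPM in high-fat and 25.7% and 9.83% in chow, and the 10 beta-cell markers, led by Ins1, Ins2 and Iapp, summed to between 87653 and 95727 CPM in high-fat and to 57623 and 80115 CPM in chow. The summed CPM of all genes was itself unequal, at 963615, 832416 and 879301 in high-fat and 841705 and 674482 in chow. Library sizes computed without acinar and insulin transcripts, an alternative used below, even out this difference as well. In whole islets, fewer cells of a type and less RNA per cell cannot be told apart.

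The sequences of promoters that bear on the genes described below are shown first, because the ISRE is the element through which type I interferon acts. RefSeq promoters (GRCm38.p6) were matched by symbol for 42 of the 56 genes, and the 250 bases before each start were searched on both strands for the ISRE core (GAAA, 2 bases of any kind, GAAA) and for the GAS TTCNNNGAA. Capitals mark a match on either strand, a minus-strand ISRE reading TTTC, 2 bases, TTTC, and each stretch runs 5′ to 3′ toward the start of the gene.
Rsad2, chr12:26456453-26456612, minus strand, 1 ISRE match: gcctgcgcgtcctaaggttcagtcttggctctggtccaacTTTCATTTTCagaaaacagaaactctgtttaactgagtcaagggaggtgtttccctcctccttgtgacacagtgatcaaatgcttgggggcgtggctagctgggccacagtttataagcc
Ifit3, chr19:34583369-34583528, plus strand, 2 ISRE matches: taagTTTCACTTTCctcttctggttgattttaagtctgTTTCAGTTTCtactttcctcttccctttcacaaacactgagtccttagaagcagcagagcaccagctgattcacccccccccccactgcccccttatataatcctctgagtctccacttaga
Ifit1, chr19:34640785-34640813, plus strand, 2 ISRE matches: TTTCACTTTCcagtctcagTTTCAGTTTC
Isg15, chr4:156200819-156200978, minus strand, 3 overlapping ISRE matches: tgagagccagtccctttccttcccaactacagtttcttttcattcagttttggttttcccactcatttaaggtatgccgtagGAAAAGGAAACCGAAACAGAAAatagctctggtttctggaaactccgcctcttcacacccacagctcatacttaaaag
Oasl1, chr5:114923080-114923239, plus strand, no match: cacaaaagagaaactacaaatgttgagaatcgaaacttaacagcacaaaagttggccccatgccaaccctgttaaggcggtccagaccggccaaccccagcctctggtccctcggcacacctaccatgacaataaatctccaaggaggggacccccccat
Isg20, chr7:78913264-78913423, plus strand, the upstream one of 3 starts, 1 GAS match: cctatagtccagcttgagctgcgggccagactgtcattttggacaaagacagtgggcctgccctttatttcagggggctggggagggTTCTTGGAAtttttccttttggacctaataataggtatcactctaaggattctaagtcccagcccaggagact
Psmb8, chr17:34198088-34198116, plus strand, 1 GAS match: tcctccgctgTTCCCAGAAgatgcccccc

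ISRE core matches stood in the promoters of 11 of the 42 genes (26.2%), against 2.98% of the 32851 promoters of the same length: B2m, Bst2, Ifit1, Ifit3, Ifitm2, Irf2, Isg15, Oas1a, Oas3, Rsad2 and Stat2. GAS matches stood in 10 of 42 (23.8%), against 7.02% of promoters, and Bst2, Irf2 and Oas1a held both. The units of these shares differ. A gene was counted when any of its starts matched, while the share of promoters counts each start by itself. A gene with several starts thus had more chances of a match. A match is a description of these letters and not a bound site. In the reference annotation the printed Psmb8 stretch overlaps an exon of Psmb8 itself, and the Oasl1 stretch overlaps an exon of the antisense gene Gm13822.

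A few of the genes differed between the diets, and their shares were below those of all genes tested. Of the 55 that had a mean of at least 0.5 CPM and were tested (all but Irf4, which lay between 0.203 and 0.371 CPM), 6 rose and 2 fell at a Benjamini-Hochberg adjusted p below 0.05 (limma over 16939 genes). Usp18, Irf7, Oasl1, Rsad2, Isg20 and Tapbp were higher in high-fat islets, and the immunoproteasome subunits Psmb8 and Psmb9 were lower. The share that rose was 10.9%, against 14.9% of all genes tested, and the share that fell was 3.64%, against 8.78%. The median log2 fold change was 0.15 for the 55 genes and 0.05 for all genes, and 70.9% of the 55 had a positive value, against 55.9% of all genes. The high-fat libraries all lay above both chow libraries in 36.4% of the 55, against 32.8% of all genes. Without chow replicate 1 the counts were 2 higher and 0 lower, without chow replicate 3 they were 5 and 2 (Ifitm2 and Ifitm3, in place of Psmb8 and Psmb9), and without high-fat replicates 1, 2 and 3 they were 5 and 0, 3 and 0, and 3 and 1. In a fit with an acinar covariate, and likewise with no filter on low values, Usp18 and Tapbp alone kept their calls. Calls were fewer over all genes as well in these 2 fits and without a high-fat library. Without 1 high-fat library 6.91% to 8.5% of all genes rose and 4.04% to 4.66% fell. The shares were 6.84% and 4.46% with the acinar covariate, and 2.74% and 1.46% with no filter.

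**Figure D1:**
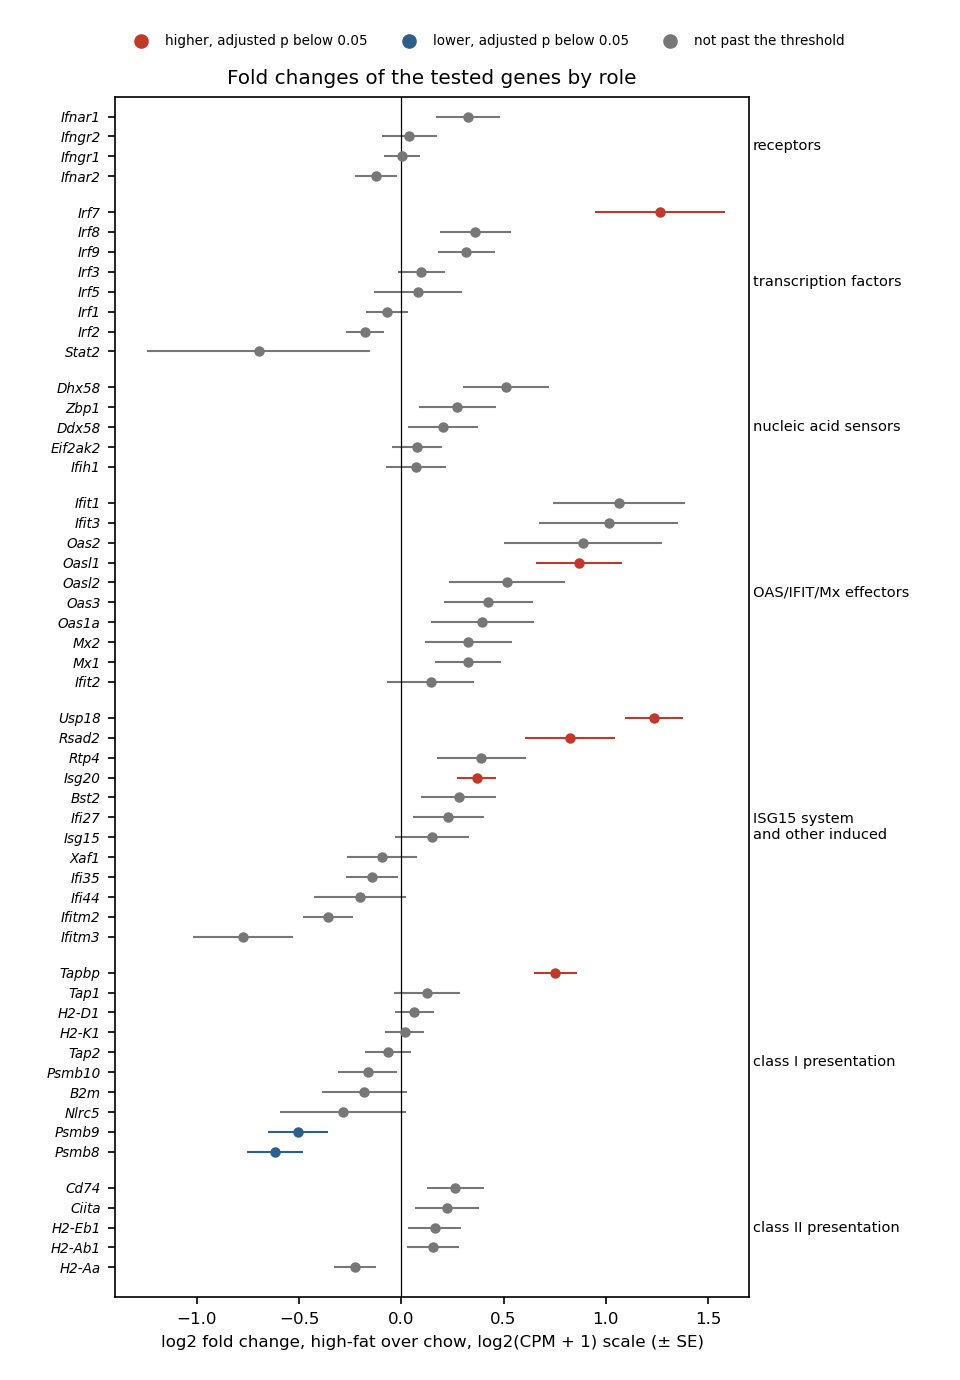
Log2 fold change of high-fat over chow on the log2(CPM + 1) scale for 54 of the 55 tested genes, grouped by role, with bars for the standard error (n = 3 high-fat and 2 chow libraries). The 6 red genes and the 2 blue genes passed an adjusted p of 0.05, and all 10 OAS, IFIT and Mx genes lie to the right of 0.

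Among the genes that carry the signal into the cell, none of the receptors passed the threshold and Irf7 alone did among the factors. Ifnar1, a chain of the type I receptor, had 27.9, 26.6 and 28.3 CPM in high-fat islets, against 17.8 and 26.6 CPM in chow islets (log2 fold change 0.33 ± 0.16 SE, limma adjusted p = 0.172). The lowest high-fat library and the higher chow library stood almost together, and chow replicate 1 stood apart. Without chow replicate 3 Ifnar1 would have passed (0.60, adjusted p = 0.00874), and without chow replicate 1 the value was 0.05. Its partner Ifnar2 had 9.89, 10.4 and 10.7 CPM in high-fat and 10.9 and 11.7 CPM in chow. Ifngr1 averaged 17.6 ± 0.533 CPM in high-fat and 17.6 ± 0.504 CPM in chow, and Ifngr2 averaged 10.9 ± 1.49 and 10.5 ± 0.452 CPM (SD, n = 3 high-fat and 2 chow). The groups overlapped for both chains of the gamma receptor.

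Irf7, the factor that amplifies type I interferon production, was at 4.95, 9.1 and 12.6 CPM in high-fat islets, against 2.82 and 2.96 CPM in chow islets. Every high-fat library lay above both chow libraries, with a wide spread among the high-fat libraries. The log2 fold change was 1.27 ± 0.32 (SE; limma adjusted p = 0.0306). The call was lost without high-fat replicates 2 and 3 (adjusted p = 0.0928 and 0.0688) and without chow replicates 1 and 3 (0.113 and 0.0722), and the log2 fold change was 1.59 without high-fat replicate 1. Irf7 shares 45 exon bases with Phrf1 on the opposite strand, itself at 52 to 56.1 CPM in high-fat and 33.4 and 40.7 CPM in chow, and strand-aware counting is not stated.

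Irf9, the DNA-binding part of the complex named above, had 10.6, 12.2 and 14.1 CPM in high-fat and 9.24 and 9.96 CPM in chow. The groups did not overlap, but the difference did not pass (0.32 ± 0.14, limma adjusted p = 0.136). Irf8, a factor of myeloid cells, was likewise higher in each high-fat library, at 2.84, 2.31 and 3.32 CPM against 2.18 and 1.75 CPM in chow (adjusted p = 0.173). Irf1, Irf2, Irf3 and Irf5 had log2 fold changes between -0.18 and 0.10, none of them past the threshold.

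Stat2 varied more within each diet than between the diets. It was at 95.3, 28.4 and 63 CPM in high-fat islets and at 146 and 56.2 CPM in chow islets (log2 fold change -0.70 ± 0.54, limma adjusted p = 0.383). The summed acinar markers were 106910, 12630 and 39114 CPM in the same high-fat libraries and 216330 and 66314 CPM in the chow libraries. The library with the most Stat2 was the one with the most acinar transcripts, and the library with the least had the fewest. Between these, high-fat replicate 3 had more Stat2 than chow replicate 3 but fewer acinar transcripts. With the acinar score as a covariate the log2 fold change was 0.25 (limma adjusted p = 0.313), and without chow replicate 1 it was -0.02. Whether acinar content accounts for the Stat2 values was not tested.

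The 5 cytosolic nucleic acid sensors among the 56 genes all had positive log2 fold changes, as did 55.9% of all genes tested, and none passed the threshold. With library sizes computed without acinar and insulin transcripts, Ifih1, Ddx58 and Eif2ak2 were at -0.35, -0.23 and -0.35, beside a median of -0.32 for all genes. Dhx58 and Zbp1 stayed positive there. Ddx58, which encodes RIG-I, had 19.8, 21.7 and 30.1 CPM in high-fat and 19.5 and 21 CPM in chow, with overlapping groups (limma adjusted p = 0.42). Ifih1, which encodes MDA5, had 14.6, 19.9 and 19.4 CPM against 17.8 and 16.1 CPM in chow, and the kinase gene Eif2ak2 had 14.5, 17.8 and 18.3 CPM against 16.2 and 15.5 CPM in chow. In each of these the groups overlapped. Zbp1, a sensor of Z-form nucleic acid, was low in both diets, at 0.464 to 1.02 CPM in high-fat and 0.425 and 0.527 CPM in chow.

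Dhx58, which encodes the regulator LGP2, was at 2.7, 3.94 and 4.79 CPM in high-fat and 2.39 and 2.24 CPM in chow (0.51 ± 0.21, limma adjusted p = 0.119). Its antisense gene Dhx58os moved the other way, with 2.57, 0.445 and 1.3 CPM in high-fat islets against 64.8 and 16.1 CPM in chow islets (-3.88 ± 0.58, limma adjusted p = 0.00553). Both genes share 141 exon bases, so reads there cannot be assigned to one of them without strand.

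The OAS, IFIT and Mx genes encode effectors that sense or bind foreign RNA or block virus assembly, and they are among the genes most strongly induced by interferon. All 10 had a positive log2 fold change (median 0.47), 7 lay higher in every high-fat library than in both chow libraries (70%, against 32.8% of all genes tested), and 1, Oasl1, passed the threshold. The share that passed was 10%, against 14.9% of all genes. Oasl1, an OAS-like protein that restrains Irf7 translation in the mouse, was at 1.56, 1.71 and 2.64 CPM in high-fat and 0.425 and 0.81 CPM in chow (0.87 ± 0.21, limma adjusted p = 0.0279). This call was lost without high-fat replicates 2 and 3 and without chow replicate 1 (adjusted p = 0.0674, 0.0739 and 0.137).

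Ifit1, which binds RNA lacking the host cap modification, had 7.09, 8.34 and 17 CPM in high-fat islets and 4.12 and 4.47 CPM in chow islets. Its log2 fold change of 1.07 ± 0.32 stood just outside the threshold (limma adjusted p = 0.0524), and it passed without high-fat replicate 3 (0.72, adjusted p = 0.0434) and without high-fat replicate 1 (1.29, adjusted p = 0.0453). Ifit3, a partner of Ifit1, had 6.4, 6.74 and 15.6 CPM against 3.7 and 4.03 CPM in chow (1.01 ± 0.34, adjusted p = 0.0711), and 0.64 without high-fat replicate 3. Both genes carry a pair of the ISRE matches printed above. Ifit3 shares 61.8% of its 31-base words with Ifit3b, so reads of this pair may be split between them, and Ifit3b had 3.56, 3.07 and 7.94 CPM in high-fat and 3.31 and 2.21 CPM in chow.

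Oasl2, an OAS-like gene with 4.37 CPM per kb in high-fat and 2.8 CPM per kb in chow, the highest level per length of the OAS genes, had 8.99, 12 and 20 CPM in high-fat and 8.5 and 9 CPM in chow (0.52 ± 0.28, limma adjusted p = 0.223). Oas2 was at 0.971, 1.54 and 4.26 CPM in high-fat islets, against 0.691 and 0.527 CPM in chow islets, and Oas3 at 0.725, 0.812 and 1.61 CPM against 0.593 and 0.41 CPM in chow. Each of these was highest in high-fat replicate 3. Oas1a, which shares 68.8% of its words with other genes, chiefly Oas1g, overlapped between the diets, as did Ifit2. Mx1 and Mx2 were low in both diets. Mx1 had 0.966, 1.17 and 1.43 CPM in high-fat and 0.789 and 0.689 CPM in chow, and Mx2 had 1.44, 1.6 and 2.7 CPM in high-fat and 1.23 and 1.33 CPM in chow. C57BL6 mice are known to carry a defective Mx1.

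High-fat replicate 3 held the highest level of all 10 OAS, IFIT and Mx genes among the high-fat libraries, and high-fat replicate 1 the lowest of all 10. Over all genes tested, replicate 3 was the highest and replicate 1 the lowest in 21.7%. The 10 genes summed to 32, 39.7 and 72.3 CPM in high-fat replicates 1, 2 and 3, and to 24.3 and 25.8 CPM in chow replicates 1 and 3. The median log2 difference of replicate 3 over replicate 1 was 0.62 for these genes and 0.04 for all genes. Among the high-fat libraries, the summed CPM of the 7 pan-leukocyte markers was also highest in replicate 3 and lowest in replicate 1. It was 25.9, 35.3 and 37.8 in high-fat and 31.8 and 25.4 in chow. Singly, Coro1a and Cybb were highest in replicate 2 (4 and 9.47 CPM, against 3.56 and 8.68 CPM in replicate 3). The 12 macrophage markers summed to 72.5, 91.7 and 93.6 in high-fat and 89.6 and 71.1 in chow. The same order was not particular to immune cells. Fibroblast and stellate markers summed to 36.2, 43.8 and 69.3 CPM in high-fat replicates 1, 2 and 3. Dendritic cell, B-cell, and alpha, delta and PP cell sums rose in that order too. T-cell, endothelial, ductal, acinar and beta-cell sums did not. None of these markers was at 0 in every library, and their part in the difference between replicates was not tested.

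**Figure D2:**
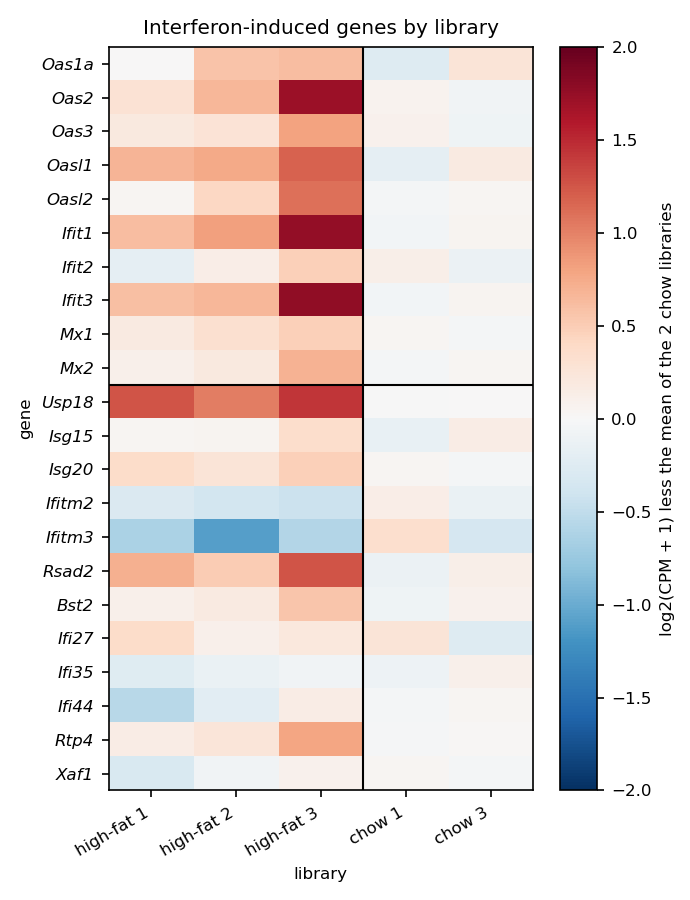
Interferon-induced genes by library, as log2(CPM + 1) less the mean of the 2 chow libraries (red higher, blue lower). In the upper block, the 10 OAS, IFIT and Mx genes are each darkest red in high-fat replicate 3. In the lower block, Usp18 is red in all 3 high-fat libraries, while Ifitm2 and Ifitm3 are blue in all 3.

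The ISG15 system and the other induced genes gave 3 rises and 0 falls among 12 (25% higher, against 14.9% of all genes tested), and 5 of the 12 had negative log2 fold changes. Usp18, the protease that removes ISG15 from proteins and damps signalling at IFNAR2, was at 13.7, 11.5 and 15.5 CPM in high-fat islets, against 5.14 and 5.15 CPM in chow islets. The groups were far apart and the chow libraries nearly equal. The log2 fold change was 1.24 ± 0.14 (SE; limma adjusted p = 0.00209), and Usp18 passed in all 15 alternatives run on the 5 distinct libraries, with adjusted p from 0.00192 to 0.0162. Isg15 itself was low and overlapped between the diets, at 0.633, 0.656 and 1.02 CPM in high-fat and 0.425 and 0.77 CPM in chow. Its promoter holds the 3 overlapping ISRE matches shown above.

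Rsad2, which encodes the antiviral enzyme viperin, was at 15.7, 13.5 and 23.5 CPM in high-fat and 8.45 and 10 CPM in chow (0.83 ± 0.22, limma adjusted p = 0.0358). The groups did not overlap. The call was lost without chow replicates 1 and 3 (adjusted p = 0.15 and 0.0553) and without high-fat replicates 1 and 3 (0.0724 and 0.0529), and with library sizes computed without acinar and insulin transcripts Rsad2 was at 0.41 (0.15). Cmpk2, an interferon-induced kinase gene and its neighbour in the genome, rose as well, with 36.9, 32 and 41.9 CPM in high-fat and 11.2 and 22.5 CPM in chow (1.15 ± 0.26, adjusted p = 0.022). It did not pass without high-fat replicates 1, 2 and 3 (adjusted p = 0.0622, 0.051 and 0.0744), its log2 fold change was 0.68 without chow replicate 1, and it was at 0.72 (0.0551) with the library sizes just named.

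Isg20, an exonuclease gene with the highest level per transcript length of this group (25.5 CPM per kb in high-fat and 19.5 CPM per kb in chow), was at 27.7, 25.6 and 29.7 CPM in high-fat and 21.8 and 20.5 CPM in chow (0.37 ± 0.10, limma adjusted p = 0.0331). Its groups did not overlap, but it kept its call in 3 of the 15 alternatives. It was lost when any of the 5 libraries was left out (adjusted p = 0.0584 to 0.105) and under median-ratio scaling (0.0624), and it was at -0.06 with library sizes computed without acinar and insulin transcripts, where the median of all genes was at -0.32.

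Ifitm3, which blocks virus entry at endosomes, had 5.41, 3.61 and 5.58 CPM in high-fat islets, against 11.5 and 6.88 CPM in chow islets (-0.77 ± 0.24, limma adjusted p = 0.0591). Ifitm2 had 10.1, 9.59 and 9.14 CPM in high-fat and 13.9 and 11.4 CPM in chow (-0.36 ± 0.12, adjusted p = 0.0749). For both, every high-fat library lay below both chow libraries, opposite to the OAS and IFIT genes, and both passed without chow replicate 3 (adjusted p = 0.0233 for Ifitm3 and 0.0406 for Ifitm2). Without chow replicate 1 Ifitm3 was at -0.44 (0.287) and Ifitm2 at -0.23 (0.314), and adding the acinar score as covariate put Ifitm3 at -0.44 (0.198). Ifitm2 shares 55.5% and Ifitm3 20.5% of their words with other genes. The sum of the 7 fibroblast and stellate markers, from Col1a1 to Pdgfrb, was lower in the same direction. It was 36.2, 43.8 and 69.3 CPM in high-fat and 217 and 119 in chow, and no marker was at 0 in every library. Singly, Pdgfrb overlapped, with 14.3 CPM in high-fat replicate 3 and 13.8 CPM in chow replicate 1. The sums of endothelial, ductal and B-cell markers also lay below both chow libraries in every high-fat library. The part of these cells in the IFITM values was not tested.

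The remaining induced genes did not pass. Bst2, the tethering factor, and Rtp4 were higher in each high-fat library, at 3.16 to 4.68 CPM and 2.11 to 3.83 CPM in high-fat, against 2.66 and 3.08 CPM and 1.75 and 1.86 CPM in chow. Ifi27, Ifi35, Ifi44 and Xaf1 overlapped, with log2 fold changes of 0.23, -0.14, -0.20 and -0.10.

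**Figure D3:**
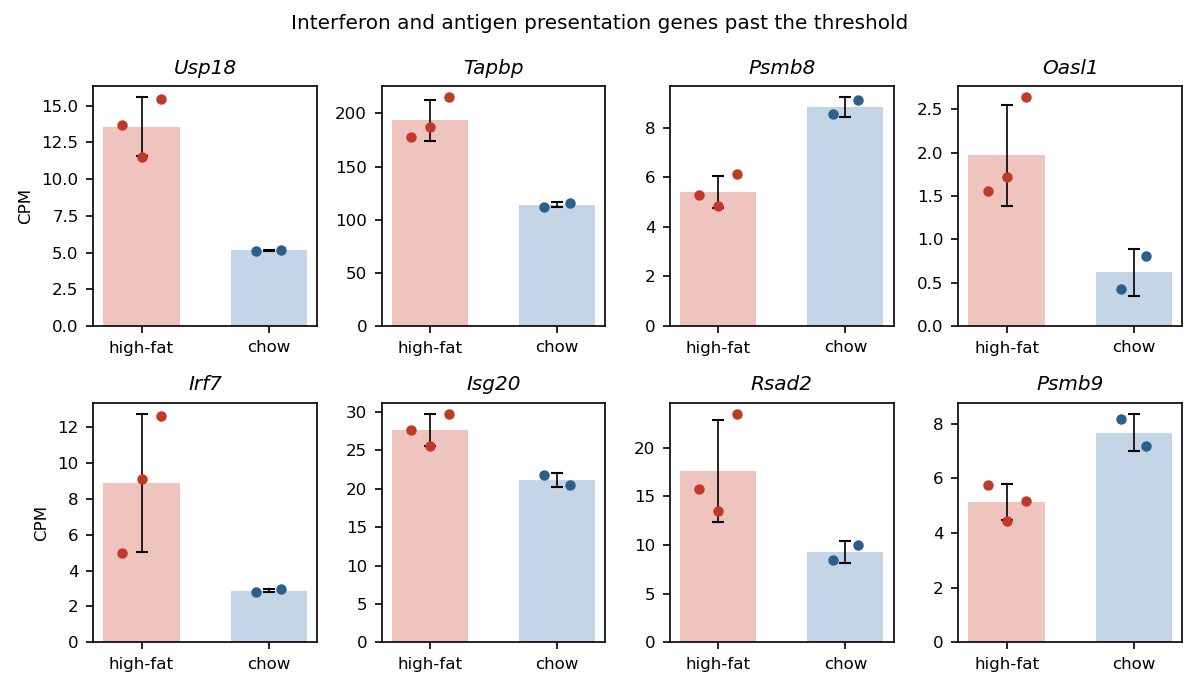
CPM of the 8 genes past the threshold, in order of p, with high-fat libraries (red, n = 3) left of chow libraries (blue, n = 2), bars for the mean and error bars for the SD. No high-fat library overlaps the chow libraries in any of the 8, and Psmb8 and Psmb9 alone are lower in high-fat.

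Class I presentation genes showed 1 rise and 2 falls among 10 (10% and 20%, against 14.9% and 8.78% of all genes tested), with a median log2 fold change of -0.11. Tapbp, which encodes tapasin, was at 178, 188 and 215 CPM in high-fat islets, against 112 and 116 CPM in chow islets. High-fat islets averaged 193 ± 19.4 CPM and chow islets 114 ± 2.33 CPM (SD, n = 3 and 2), with no overlap. The log2 fold change was 0.75 ± 0.11 (limma adjusted p = 0.00437), and it passed in 14 of the 15 alternatives. With library sizes computed without acinar and insulin transcripts it was 0.31 (adjusted p = 0.091), above a median of all genes of -0.32. In the reference annotation 24.9% of its exon bases lie opposite the antisense gene Gm19412, which had 1.29 to 1.69 CPM in high-fat and 0.952 and 1.09 CPM in chow.

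The class I chains themselves did not differ beyond their spread. H2-K1, a classical class I heavy chain, had 190, 189 and 211 CPM in high-fat and 188 and 200 CPM in chow, and was the most abundant of the presentation genes per transcript length (121 CPM per kb in high-fat and 120 CPM per kb in chow). H2-D1, the other one in this strain, had 137, 140 and 159 CPM in high-fat and 141 and 137 CPM in chow. B2m, their light chain, had 36.2, 49.3 and 61.4 CPM in high-fat and 60 and 49.3 CPM in chow, a range within high-fat wider than the difference between the diets. H2-K1 and H2-D1 share 23.4% and 27.7% of their words with other genes, mostly each other and H2-Q or H2-T genes. With library sizes computed without acinar and insulin transcripts, H2-K1, H2-D1 and B2m were called lower (-0.43, -0.38 and -0.62, limma adjusted p = 0.0276, 0.0339 and 0.0398) beside the median of -0.32.

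The transporter genes Tap1 and Tap2 overlapped between the diets, at 8.52, 11.1 and 11.1 CPM in high-fat and 10.5 and 8.12 CPM in chow for Tap1. Nlrc5, which drives class I transcription, was low in both diets and had its lowest value, 0.633 CPM, in high-fat replicate 1, against 2.29 and 2.03 CPM in the other high-fat libraries and 2.34 and 1.86 CPM in chow.

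Psmb8 and Psmb9, catalytic subunits of the immunoproteasome, were lower in high-fat islets. Psmb8 had 5.3, 4.86 and 6.13 CPM in high-fat and 8.55 and 9.12 CPM in chow (-0.62 ± 0.14, limma adjusted p = 0.0208). Psmb9 had 5.77, 4.43 and 5.19 CPM in high-fat and 8.16 and 7.2 CPM in chow (-0.51 ± 0.15, adjusted p = 0.0474), while Tap1, which lies head to head with Psmb9 and shares 212 exon bases with it on the other strand, had a log2 fold change of 0.12. Both calls were narrow. Psmb8 was lost without chow replicates 1 and 3 (adjusted p = 0.0655 and 0.0632) and high-fat replicates 1 and 2 (0.0612 and 0.0687), and Psmb9 was lost when any of the 5 libraries was left out (0.065 to 0.195). With 1 library left out, the log2 fold change ran from -0.69 to -0.55 for Psmb8 and from -0.59 to -0.42 for Psmb9. The third immunoproteasome subunit, Psmb10, had 9.07, 7.05 and 8.6 CPM in high-fat and 10 and 8.67 CPM in chow (limma adjusted p = 0.43).

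The constitutive subunits that these replace were looked at after the values of Psmb8 and Psmb9 had been seen. Psmb5, the counterpart of Psmb8, had 20.5, 18.3 and 17.7 CPM in high-fat and 13.7 and 12.1 CPM in chow (0.51 ± 0.11, limma adjusted p = 0.0188), and Psmb6, the counterpart of Psmb9, had 35.7, 32.6 and 33.1 CPM in high-fat and 23.5 and 27 CPM in chow (0.41 ± 0.10, adjusted p = 0.0247). Both were thus higher where Psmb8 and Psmb9 were lower. With library sizes computed without acinar and insulin transcripts Psmb5 was at 0.09 and Psmb6 at -0.03 and neither passed. The ratio of the members of a pair within a library does not depend on the scaling. Psmb8 over Psmb5 was 0.259, 0.265 and 0.346 in high-fat islets and 0.622 and 0.751 in chow islets, and Psmb9 over Psmb6 was 0.161, 0.136 and 0.157 in high-fat and 0.348 and 0.266 in chow. Psmb10 over Psmb7 was 0.362, 0.297 and 0.385 in high-fat and 0.42 and 0.423 in chow. All 3 ratios were lower in each high-fat library than in both chow libraries, with the widest gap for Psmb8. For Psmb8 and Psmb9 this follows from the values above, since each lay below chow and its counterpart above chow in every high-fat library. These 2 ratios are therefore no separate evidence. Each ratio had an exact two-sided permutation p of 0.2 (adjusted p = 0.2 over 3 tests). That is the smallest p that 3 libraries against 2 can give, so the test could not pass the threshold.

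Psmb5 did not pass without chow replicate 3 (limma adjusted p = 0.051) or high-fat replicates 1 and 2 (0.0624 and 0.0599), nor Psmb6 without chow replicate 1 (0.0919) or high-fat replicates 1, 2 and 3 (0.0813, 0.0674 and 0.0718).

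**Figure D4:**
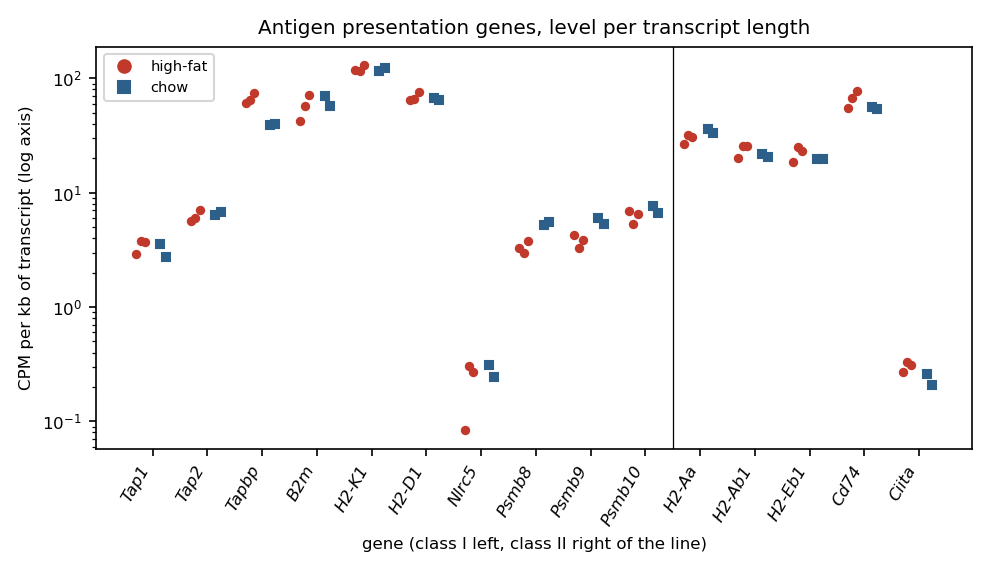
Level of the 15 antigen presentation genes per kb of the longest coding transcript (log axis), with high-fat libraries as red circles left of chow libraries as blue squares. H2-K1 tops class I and Cd74 class II, Tapbp separates the diets upward and Psmb8 and Psmb9 downward, and 1 high-fat value of Nlrc5 lies far below the rest.

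Class II presentation genes, which mark macrophages, dendritic cells and B cells, did not pass the threshold in either direction (0 of 5, against 23.7% of all genes tested, with 0 of 5 also at an unadjusted p below 0.05). Cd74, the invariant chain, had 78.2, 95.9 and 109 CPM in high-fat and 79 and 76.4 CPM in chow, with high-fat replicate 1 inside the chow range (0.26 ± 0.14, limma adjusted p = 0.204). H2-Aa, a class II alpha chain, was lower in each high-fat library, at 29.9, 35.8 and 34.5 CPM against 40.6 and 37.7 CPM in chow (adjusted p = 0.15). Its partner H2-Ab1 had 24.2, 31.2 and 31.1 CPM in high-fat and 26.3 and 25 CPM in chow, and H2-Eb1 had 31, 42 and 39 CPM against 33.1 and 32.9 CPM in chow. H2-Ab1 and H2-Eb1 overlapped between the diets. In C57BL6 mice the alpha partner of H2-Eb1 is known not to be made. Ciita, the master regulator of class II, was at 1.62, 1.98 and 1.86 CPM in high-fat and 1.57 and 1.26 CPM in chow (adjusted p = 0.328).

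High-fat replicate 1 was the lowest high-fat library for all 5 class II genes, against 41.8% of all genes tested. It was also the lowest for the leukocyte and macrophage sums given above. The same held for the dendritic cell, B-cell, endothelial, fibroblast and stellate, and alpha, delta and PP cell sums. The 9 dendritic cell markers summed to 10.4, 11.6 and 13.9 CPM in high-fat and 13.3 and 11.4 CPM in chow, and the 7 B-cell markers to 10.9, 11.1 and 11.3 CPM in high-fat and 23.1 and 14.3 CPM in chow. Of the B-cell markers, 3 of 7 reached a mean of 0.5 CPM and Cd79a made up most of the sum. The part of these cells in the class II values was not tested.

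Beyond the 56 genes, other genes of the same pathways were counted in 5 further lists. The 12 interferon ligands were not tested, since none reached the filter and their highest value was 0.188 CPM. Of 10 other signalling genes 1 rose and 1 fell, or 10% and 10%, against 14.9% and 8.78% of all genes tested. The kinase Jak2 had 22.9, 24.2 and 23.9 CPM in high-fat and 32.4 and 33.2 CPM in chow (-0.46 ± 0.08, limma adjusted p = 0.00957). The inhibitor Socs3 had 7.68, 8.71 and 6.47 CPM against 4.15 and 5.1 CPM in chow (0.61 ± 0.16, adjusted p = 0.0353). Socs3 was lost without chow replicate 1 and without high-fat replicates 1 and 2 (adjusted p = 0.152, 0.0907 and 0.107), and with library sizes computed without acinar and insulin transcripts it was at 0.23 (0.329).

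Of 17 tested sensing genes 3 rose and 1 fell, or 17.6% and 5.88%, close to the 14.9% and 8.78% of all genes tested. The 3 that rose encode adaptors. Traf3 had 54.6, 64.9 and 67.9 CPM in high-fat and 37.9 and 47.8 CPM in chow, Myd88 had 12.3, 13.2 and 15.4 CPM against 9.34 and 9.85 CPM in chow, and Ticam1 had 19, 17.6 and 16.9 CPM against 12.3 and 14.5 CPM in chow (limma adjusted p = 0.0297, 0.0376 and 0.0429). None of the 3 adaptor genes passed without chow replicate 1 (limma adjusted p = 0.123 to 0.17) or without high-fat replicate 2 (0.0948 to 0.111). Without high-fat replicate 3 their adjusted p ran from 0.0882 to 0.107, and without high-fat replicate 1 Traf3 alone passed (0.0349). Myd88 was also lost without chow replicate 3 (0.0639). With library sizes computed without acinar and insulin transcripts, none of the 3 passed, with Traf3 at 0.10, Myd88 at 0.05 and Ticam1 at -0.03 (adjusted p = 0.644, 0.815 and 0.856).

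Of 49 tested other interferon-induced genes 3 rose and 2 fell, or 6.12% and 4.08%, against 14.9% and 8.78% of all genes, and their median log2 fold change was -0.01. Pnpt1, which encodes a mitochondrial RNA exonuclease, rose with 23.5, 24 and 22 CPM in high-fat and 8.64 and 7.65 CPM in chow (1.40 ± 0.10, limma adjusted p = 0.000226), and Samd9l, an antiviral factor gene, fell with 17.7, 20.1 and 20.5 CPM against 26.7 and 25.6 CPM in chow (-0.42 ± 0.10, adjusted p = 0.025). Cxcl10, a chemokine of the interferon response named here after its value was seen, was at 1.77, 1.59 and 5.23 CPM in high-fat and 0.266 and 0.243 CPM in chow (1.50 ± 0.37, adjusted p = 0.0293). Like the IFIT genes it was highest in high-fat replicate 3, and it passed without that library (1.10, adjusted p = 0.0175) but not without chow replicate 1 or 3 (0.104 and 0.0763). Gbp4, an interferon-induced GTPase gene, was the other that fell, and of the fits with a library left out it passed without chow replicate 3 alone. Samd9l passed only without chow replicate 3 among the fits with a library left out (adjusted p = 0.0418), and its adjusted p in the other 4 ran from 0.0548 to 0.0918.

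Of 25 tested other presentation genes 2 rose and 4 fell, or 8% and 16%, against 14.9% and 8.78% of all genes tested. Both that rose encode parts of the complex that CIITA works with at class I and class II promoters. Rfxap had 33, 30.7 and 29.9 CPM in high-fat and 9.25 and 10.4 CPM in chow (1.58 ± 0.10, limma adjusted p = 0.000103), and Rfx5 had 40.6, 45.2 and 38 CPM against 20.9 and 23.2 CPM in chow (0.87 ± 0.10, adjusted p = 0.00217). Both passed in each of the 15 alternatives on the distinct libraries, with Rfx5 at 0.44 where library sizes were computed without acinar and insulin transcripts. None of the 5 class II genes above passed in the comparison reported. H2-Q7, a non-classical class I gene, fell with 1.74, 1.59 and 2.11 CPM in high-fat and 8.3 and 4.39 CPM in chow (-1.33 ± 0.24, adjusted p = 0.0111). H2-Q4, H2-Q6 and Ctsl fell too (named after their values were seen). Without chow replicate 1 none of these 3 passed (adjusted p = 0.0519, 0.15 and 0.0618), H2-Q6 was at -0.50 in place of -0.98, and without a high-fat library H2-Q6 and Ctsl did not pass. Reads of H2-Q genes may be shared with other class I genes.

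Set beside the fold changes, the promoter matches gave these counts. Of the 11 tested genes with a match, 1 (Rsad2) rose and 0 fell, and of the 30 tested genes with a promoter and no ISRE match, some of which hold a GAS match, 4 rose and 2 fell. Of the 10 tested genes with a GAS match, 1 (Isg20) rose and 1 (Psmb8) fell, and of the 31 without one, 4 rose and 1 fell. The share of genes higher in high-fat was 13.9% among all 353 tested genes with an ISRE match and 12.8% among all 822 with a GAS match. Among all genes tested it was 14.9%. The median log2 fold change was 0.28 for the 11 and 0.07 for the 30. All high-fat libraries lay above chow in 5 of the 11 and 7 of the 30, against 32.8% of all genes tested. The share of the 11 was above that of all genes and the share of the 30 below it. These counts are small, and a link between the matches and the diet was not tested.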

How the data were processed

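Gene expression was measured by RNA sequencing in 6 islet samples. Per the submitters' processing notes, the authors used Partek. No version, aligner, genome build, strand setting or library kit is given in the sources consulted. The deposited values were read as CPM plus 1, because each column's lowest value was 1 and low values fell on multiples of a step, and 1 was subtracted. Values worth 20 reads or fewer were whole reads (within 0.1) in 64.5% to 69.9% of cases, so counts were not recovered and no count model was run.

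Differences were tested with limma 3.58.1 (R 4.3.3) on log2(CPM + 1), using a trended variance prior, in 16939 genes averaging 0.5 CPM or more over 5 libraries (3 high-fat, 2 chow). P-values were Benjamini-Hochberg adjusted with a threshold of 0.05, and this scale understates the change of low genes. The fit was tested on simulated data. Values in every sample were given for genes past the threshold and for the most abundant gene of each role, and the 3 smallest p-values past the threshold chose the genes named from each further list. Other genes were named after their values were seen. The genes, lists and tests were chosen with earlier results of these data known. GENCODE M21, possibly not the authors' annotation, gave transcript lengths, exon overlaps and shared words of 31 bases. Alternatives were other scalings (median ratio, unweighted trimmed mean of M values, library sizes computed without acinar and insulin transcripts), no filter or 1 CPM, 0.5 or 2 added, sample quality weights, no trend, an acinar covariate, all 6 columns, and each library left out. Results for a few genes are not reported here.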

Additional observations from a re-analysis of the deposited data

How the results depend on the processing

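With the counts of genes higher and lower in high-fat islets at 6 and 2, and at 9 and 8 for the further lists, library sizes computed without acinar and insulin transcripts gave 3 and 15, and 4 and 39, with 805 higher and 6316 lower over all genes and their median at -0.32 in place of 0.05; there Isg20 (-0.0609), Ifngr1 (-0.42), H2-K1 (-0.43) and H2-D1 (-0.38) turned negative. That scaling took out both the named transcripts and the unequal summed CPM, and their parts in the shift were not told apart. No filter gave 2 and 0 by limma (4 lower at an unadjusted p below 0.05), and 3 and 2. Sample quality weights gave 3 and 1, and 5 higher in the lists. The acinar covariate gave 2 and 0 (1 lower at an unadjusted p below 0.05), and 3 and 4. All 6 columns, which count the averaged chow column as a sample and so overstate n, gave 11 and 4, and 17 and 14. Over all genes, 2.74% rose and 1.46% fell with no filter, and 12.2% and 6.65% with sample quality weights. Those shares were 6.84% and 4.46% with the acinar covariate, and 25% and 16.7% with all 6 columns. Leaving out 1 library gave 2 to 5 higher and 0 to 2 lower, and in the lists 4 to 9 higher and 2 to 9 lower. Median-ratio and unweighted trimmed-mean scaling each gave 5 and 2, and kept 7 of the 8 calls, with 2118 higher and 1874 lower, and 2185 and 1827, over all genes in place of 2524 and 1487. Usp18 kept its call in 15 of 15 alternatives on the 5 distinct libraries and Tapbp in 14. No paired analysis was possible because the labels give no replicate numbers that the diets share. Genes below about 1 CPM rest on few reads, and the causes of these shifts were not tested. Taking out 1 chow library leaves a single one, which is assumed to vary like the others.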
